A study of Mus musculus with 42 samples.

Results

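In resting wild-type (WT) bone marrow-derived macrophages (BMDM), 1380 mouse protein-coding genes longer than 10 kb had RNA polymerase II (Pol II) in a short region at the start of the gene. Each of them had a region of Pol II enrichment over its transcription start site (TSS, with 500 bp on either side) that was under 2000 bp wide in all 3 WT libraries without lipopolysaccharide (LPS). They made up 9.77% of the 14130 protein-coding genes over 10 kb, and 17.6% of the 7857 long genes with a region over the TSS in all 3 of these libraries. Of the other long genes, 5584 had a start region of 2000 bp or more in all 3 libraries (wide-start genes), 5901 had no start region in any, and 1265 fell in neither class. The members were chosen from the WT libraries at 0 h, so every Pol II value of WT at 0 h, and every difference from it, is given as a description.

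Pol II that has begun transcription often stops a short way into a gene and waits there until the kinase P-TEFb releases it into elongation. Chromatin immunoprecipitation (ChIP) then finds Pol II mainly at the promoter and little over the gene body, whereas a gene in active elongation carries it along its length. In macrophages, LPS, a bacterial cell wall component sensed by Toll-like receptor 4, switches on inflammatory genes within an hour and interferon-driven genes later. A short region can also come from low enrichment, since only the densest stretch then passes the region search, and Pol II ChIP does not tell paused from newly recruited polymerase. The Pol II antibody named in the labels is not the one in the study's methods, so the form of Pol II it binds is not settled here.

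The groups were BMDM of C57Bl6/J mice, either WT or lacking Nur77, the nuclear receptor encoded by Nr4a1, at 0, 1 or 18 h of LPS. Pol II and H3K27ac, the acetylation of histone H3 at lysine 27 that marks promoters and enhancers in use, were each measured in 3 libraries per group, with 1 input per group. Per the study's methods the cells came from male mice of 6 to 12 weeks, LPS was given at 100 ng/ml, and Nur77-KO mice carried a whole-body deletion made with a Cre driven by the cytomegalovirus promoter, which was then bred out, with WT littermates as controls. The genotype label of the KO libraries reads only cre, and any share of Cre in what differed between KO and WT was not tested. The labels do not say whether libraries of a group came from separate animals, and p-values measure the spread between these libraries.

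Levels are normalized tags, which are the tags in an enriched region per 10 M tags of the library (M, mega). A gene was followed at its TSS (500 bp on either side) and in the rest of the gene, which runs to the gene end. A level of 0 means that no region passed the search there, not that reads were absent. Pol II libraries held 21.7 to 36.1 M tags, and the share of tags in regions was 61.6% in WT 0 h replicate 1 and 70.4 to 81.1% in the other 17. All 10 macrophage markers had a start region in WT at 0 h, with a summed level of 27070 to 31690, against 1 of 10 T and B cell markers (164.7 to 233) and 1 of 10 endothelial and epithelial markers (305.7 to 381.6). In the other 5 groups 8 to 10 of the macrophage markers had a start region in all 3 libraries, with summed levels of 27310 to 45640, the T and B cell markers held 134.6 to 243.7, and the endothelial and epithelial markers 148.8 to 304 in KO at 0 h and both genotypes at 1 h and 493 to 641.5 at 18 h. In the rest of the gene 1 of the 10 macrophage markers rose and 6 fell in KO at 1 h, beside 12.3% and 38.1% of all genes tested. At 18 h in KO 2 rose and 6 fell, beside 14.5% and 20.7%. The part of these shifts in the results was not tested. Nr4a1 (chr15:101254269-101274795, + strand) is itself a member, so its WT values at 0 h are a description. It had a start region of 0.630 to 1.26 kb in WT at 0 h and none in the 12 libraries with LPS, and it held 166 to 183 normalized tags in the rest of the gene in WT and 57.1 to 77.5 in KO at 0 h. After 1 h of LPS these values were 23.0 to 30.4 in WT and 33.5 to 37.4 in KO. The groups did not overlap at either time and stood in opposite orders, so Pol II over Nr4a1 checks the genotype labels only in part, and the Nr4a1 sequence deleted in KO is not delimited in the sources used here.

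The 250 bases before the TSS are printed for the 7 members on which the results below turn, in mm10 (the GRCm38 assembly), 5′ to 3′ on the strand of the gene. They are Gbp5 (chr3:142493728-142493977, + strand) and Slco3a1 (chr7:74554781-74555030, − strand), which spread at 1 h and stayed spread, Rab11fip1 (chr8:27174647-27174896, − strand) and Abtb2 (chr2:103566060-103566309, + strand), which spread for a short time, and Batf (chr12:85686419-85686668, + strand), whose own start region in WT was widest at 18 h. Smc3 (chr19:53600148-53600397, + strand) stayed narrow throughout, and Ksr2 (chr5:117413750-117413999, + strand) lost its start region. Capitals mark the letters of a TATA box (TATAAA), an AP-1 motif (TGAGTCA or TGACTCA), an NF-kB motif (GGG and TTCC with any 3 bases between them) or an interferon-stimulated response element (ISRE, a pair of GAAA with any 2 bases between them), read on both strands.
Gbp5: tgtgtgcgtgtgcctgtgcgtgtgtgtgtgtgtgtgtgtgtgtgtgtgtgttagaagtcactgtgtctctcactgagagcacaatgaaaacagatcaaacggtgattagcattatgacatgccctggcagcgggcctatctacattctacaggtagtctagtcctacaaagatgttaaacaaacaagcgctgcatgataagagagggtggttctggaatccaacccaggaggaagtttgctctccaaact
Slco3a1: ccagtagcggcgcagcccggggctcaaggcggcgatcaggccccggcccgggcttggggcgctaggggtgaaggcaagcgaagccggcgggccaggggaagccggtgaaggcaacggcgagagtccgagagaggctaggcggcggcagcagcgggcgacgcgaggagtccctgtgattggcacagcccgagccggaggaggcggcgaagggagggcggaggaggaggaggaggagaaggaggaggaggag
Rab11fip1: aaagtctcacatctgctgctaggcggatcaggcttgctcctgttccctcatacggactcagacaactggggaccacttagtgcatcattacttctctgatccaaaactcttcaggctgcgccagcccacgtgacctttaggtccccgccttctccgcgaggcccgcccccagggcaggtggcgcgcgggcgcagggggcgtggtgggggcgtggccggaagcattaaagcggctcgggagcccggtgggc
Abtb2: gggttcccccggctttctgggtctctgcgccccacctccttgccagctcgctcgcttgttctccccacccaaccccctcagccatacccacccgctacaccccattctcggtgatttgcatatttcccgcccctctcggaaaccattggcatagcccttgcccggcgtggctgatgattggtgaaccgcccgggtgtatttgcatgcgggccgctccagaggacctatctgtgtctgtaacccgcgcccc
Batf: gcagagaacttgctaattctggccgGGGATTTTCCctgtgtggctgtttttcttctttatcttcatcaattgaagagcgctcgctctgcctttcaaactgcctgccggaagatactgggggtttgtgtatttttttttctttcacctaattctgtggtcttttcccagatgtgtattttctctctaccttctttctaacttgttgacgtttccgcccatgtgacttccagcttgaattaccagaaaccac
Smc3: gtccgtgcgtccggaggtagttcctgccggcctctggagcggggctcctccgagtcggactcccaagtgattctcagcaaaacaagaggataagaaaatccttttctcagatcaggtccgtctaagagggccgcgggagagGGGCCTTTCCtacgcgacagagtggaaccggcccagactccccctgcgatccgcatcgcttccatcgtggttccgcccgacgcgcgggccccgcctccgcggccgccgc
Ksr2: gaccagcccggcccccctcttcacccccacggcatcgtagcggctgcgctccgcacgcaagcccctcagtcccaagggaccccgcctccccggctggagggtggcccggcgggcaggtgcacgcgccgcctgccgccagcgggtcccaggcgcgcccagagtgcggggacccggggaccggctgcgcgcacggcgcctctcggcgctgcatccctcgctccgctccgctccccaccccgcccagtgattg

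Batf and Smc3 each held an NF-kB motif, which began 225 and 109 bases before the TSS. Gbp5, Slco3a1, Rab11fip1, Abtb2 and Ksr2 held none of the 4 marked motifs, which says only that these letters are not in the window.

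At rest the members had a median of 22.8 normalized tags per kb at the TSS and 0.590 per kb in the rest of the gene. The wide-start genes had 35.4 and 9.02. A median of 2.87% of the rest of a member was covered by any Pol II region, against 40.7% of a wide-start gene. Of the members, 1032 had less than 10% of the rest covered, 107 none, and 56 more than 50%. In 566 members the covered length beyond the TSS exceeded the width of the start region. The short start region therefore did not always mean an empty gene, since separate regions lay further in.

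The median level at the TSS was 22.8 normalized tags, with 7.61 at the 5th and 48.4 at the 95th percentile and a highest mean of 110 in Tcte3. Tcte3, Gm3448 and Ermard (chr17:15041208-15090044, + strand) share 1 start region, and Ermard held 65.1, 108 and 121 at the TSS in the 3 WT libraries at 0 h. Atg4d, a protease of autophagy, held 82.6, 94.8 and 101. Ppih, a cyclophilin of the spliceosome, held 78.8, 78.2 and 82.4. Just inside the width limit, the widest start regions were 1998 bp for A630089N07Rik and 1999 bp for Gpd1l and Inka2. Just outside it were Tbc1d8 with 2001 bp, Phf6 with 2002 bp and Kif22 with 2003 bp.

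**Figure D1:**
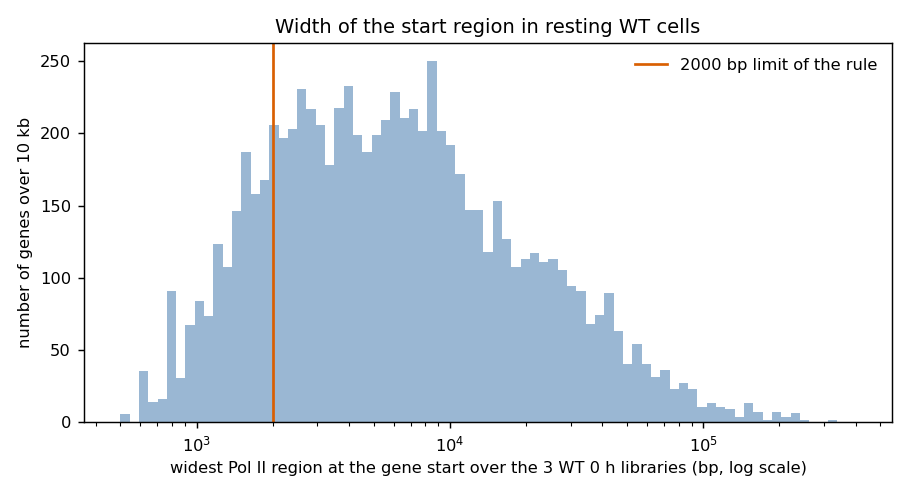
Number of long genes by the width in bp of the widest Pol II region over the TSS in resting WT BMDM (log axis), with the 2000 bp limit as a line. The distribution runs through the limit without a gap, so members and wide-start genes are neighbouring ranges of 1 spread.

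Nearly every member carried H3K27ac at its start. A region within 2500 bp of the TSS was found for 96.5% of members, 98.0% of wide-start genes and 7.61% of long genes with no Pol II start region. The median level was 61.1 normalized tags in members and 293 in wide-start genes. Another gene started within 1 kb in 315 members (22.8%, against 35.6% of wide-start genes), 276 were overlapped by another coding gene, and 904 had neither. An input library also had a region over the TSS in 64.9% of members, 87.9% of wide-start genes and 8.22% of genes with no start region, and 9 members had one in all 6 inputs. What this enrichment without antibody adds to a start region was not tested beyond leaving such regions out. The median gene length was 33.8 kb in members and 31.8 kb in wide-start genes.

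The promoters of members lay between those of the wide-start genes and those of long genes without a start region in CpG content. The median ratio of observed to expected CpG within 500 bp of the TSS was 0.688 in the 1380 members, 0.772 in wide-start genes, 0.333 in genes without a start region and 0.552 over all 21884 protein-coding genes. TATAAA stood in the 250 bases before the TSS in 6.96% of members, 5.55% of wide-start genes and 11.5% of all genes. A GC box (GGGCGG, either strand), the site of Sp1, stood in 56.1%, 58.3% and 39.0%. The NF-kB letters were found in 5.0% of members, 5.21% of wide-start genes and 4.89% of all genes.

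After 1 h of LPS many members had no start region that passed the search, and fewer had a wide one. In the 3 WT libraries at 1 h, 430, 467 and 427 members had no region over the TSS, and 140, 100 and 122 had one of 2000 bp or more. In KO at 1 h, 308, 284 and 316 had none and 156, 160 and 150 were wide. After 18 h the members without a region numbered 205, 182 and 199 in WT and 225, 208 and 254 in KO, and those with a wide region 240, 292 and 236 in WT and 220, 275 and 208 in KO. Start regions of 10 kb or more were found for 26 to 28 members in WT and 35 to 40 in KO at 1 h, and for 32 to 35 and 36 to 41 at 18 h. In KO at 0 h, which the choice of members did not use, 35, 29 and 48 members had no region and 92, 106 and 77 had a wide one. All libraries of KO at 1 h had fewer members without a region than any WT library at 1 h, and more than any library at 18 h.

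**Figure D2:**
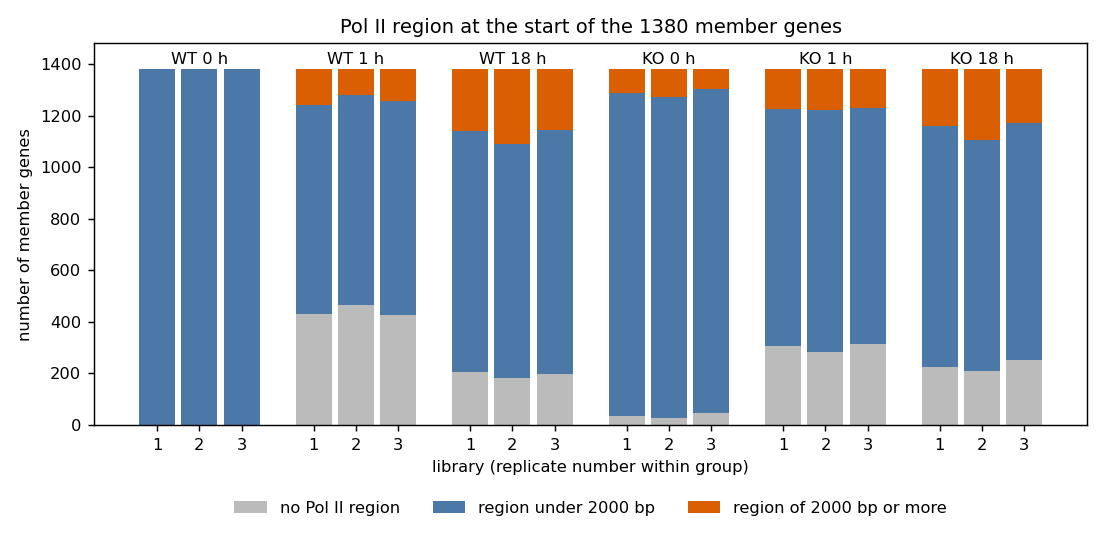
Number of the 1380 members (y axis) with no Pol II region over the TSS, a region under 2000 bp or a region of 2000 bp or more, as stacked bars for each of the 18 Pol II libraries. WT at 0 h is narrow by the choice of members, the 3 WT libraries at 1 h have the most members without a region (427 to 467), and the 18 h libraries have the most wide ones (208 to 292).

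Taking the state found in at least 2 of 3 libraries, the courses differed between genes. In WT, 612 members were narrow at both 1 h and 18 h, 278 had no region at 1 h and a narrow one at 18 h, 161 went from narrow to wide, 150 had none at either time and 61 were wide at both. A further 51 were wide at 1 h and narrow at 18 h, 37 went from narrow to none and 20 from none to wide. In KO the same classes held 716, 150, 149, 140, 68, 65, 74 and 8. At 1 h the genotypes shared the state none for 286 members, narrow for 758 and wide for 102, while 164 had no region in WT and a narrow one in KO. Over all libraries, 74 members were wide in all 6 libraries at 1 h, 120 in all 6 at 18 h and 30 in all 12. No region was found in all 6 libraries for 188 members at 1 h and 139 at 18 h, and 321 stayed under 2000 bp in all 18.

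The NF-kB letters stood in the promoter of 11 of the 74 members wide in all 6 libraries at 1 h (14.9%) and of 11 of the 120 wide in all 6 at 18 h (9.17%), beside 5.0% of all members. AP-1 letters stood in 6 of the 74 (8.11%) and 6 of the 120 (5.0%), beside 3.19% of members. ISRE letters stood in 5 of the 74 (6.76%) and 11 of the 120 (9.17%), beside 2.68%. In the 188 members without a region at 1 h these 3 motifs stood in 4.26%, 2.66% and 3.72%. The ISRE was added to the motifs after values had been seen, and these shares are counts of letters with no test.

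Median levels at the TSS and in the rest of the gene were lowest at 1 h and higher again at 18 h, in KO only in part for the rest of the gene. The median level at the TSS was 20.6 to 23.5 normalized tags in WT at 0 h, 9.66 to 10.6 at 1 h and 21.2 to 22.1 at 18 h. In KO it was 21.6 to 24.6, 13.9 to 14.4 and 19.0 to 21.9. The median in the rest of the gene was 19.4 to 25.5, 2.43 to 4.54 and 18.5 to 19.9 in WT, and 22.4 to 23.9, 6.88 to 7.46 and 15.1 to 18.3 in KO. KO libraries at 1 h were above all WT libraries at 1 h in both medians. Members listed at 0 in the rest of the gene numbered 165 to 187 in WT at 0 h and 291 to 323 at 18 h, and 178 to 213 and 314 to 374 in KO. The median width of the start regions found was 1209 to 1268 bp, 916 to 1013 bp and 1331 to 1434 bp in WT, and 1231 to 1317 bp, 1038 to 1058 bp and 1287 to 1342 bp in KO. These medians are on a scale per 10 M tags of a library, so they give shares of Pol II tags and not amounts per cell.

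The summed tags in the rest of the gene were higher with LPS than without, and at 1 h fewer genes carried them. The rest of all members together held 130300 to 154900 normalized tags in WT at 0 h, 183000 to 194100 at 1 h and 200000 to 208800 at 18 h. At 1 h the 20 highest members held 50.0 to 51.5% of these tags in WT and 47.0 to 47.8% in KO, against 37.2 to 38.7% in WT and 37.2 to 38.0% in KO at 0 h, and 32.7 to 33.7% and 34.1 to 35.1% at 18 h. As few as 19 to 20 members held 50% of the tags in WT at 1 h, compared with 42 to 47 at 0 h and 48 to 50 at 18 h. This was not particular to members. Among wide-start genes in WT 578 to 602 held 50% of their tags at 0 h, 257 to 270 at 1 h and 530 to 557 at 18 h. Their 20 highest held 6.42 to 6.56%, 11.6 to 12.0% and 8.01 to 8.54%. The TSS share of the summed tags of all members together was 18.4 to 19.1% in WT at 0 h, 7.99 to 8.57% at 1 h and 13.2 to 14.4% at 18 h. This pooled share is weighted by the members with most tags and is not that of a typical member. The WT medians were 20.59 to 23.49 at the TSS and 19.45 to 25.51 in the rest at 0 h. At 1 h they were 9.66 to 10.6 and 2.435 to 4.539. In wide-start genes the TSS share was 6.29 to 6.75%, 5.05 to 5.44% and 5.75 to 6.34%, and 200 to 236 of the 5584 had no start region in WT at 1 h.

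Changes of single genes were tested on log2(level + 10), and calls needed a log2 change over 1 in either direction and an adjusted p under 0.05. A gene listed at 0 in one group entered a test only through the other, so its log2 change and p-value rest on the constant added. In KO, 1 h of LPS raised the level in the rest of the gene of 154 members and lowered that of 443, of 1225 members tested. Over all 12668 genes tested, 50.4% were called, 12.3% higher and 38.1% lower, and the median log2 change was −0.65 in members and −0.64 in all genes. With the libraries centred on their median gene, the same comparison gave 216 higher and 268 lower, and with quantile normalization 268 and 204, so which direction had more calls depended on the scaling. At 18 h of LPS in KO, 201 members were higher and 245 lower, beside 14.5% and 20.7% of all genes, with a median of −0.23 in members and −0.20 in all genes. Quantile normalization gave 255 and 160, 50 added in place of 10 gave 134 and 81, and members found in every library gave 159 and 148, so here too the setting turned the direction with more calls. With 50 added, a level under 50 that falls to 0 cannot reach the call. Requiring every library leaves out members listed at 0 in a library compared. From 1 h to 18 h in WT, 507 members rose and 114 fell, beside 44.4% and 10.5% of all genes, with a median of 0.87 in members and 0.81 in all genes. After centring the split was 241 and 213.

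At the TSS the direction with more calls held a larger share of members than of all genes tested and the other direction a smaller one, which is given as a description. Members were chosen to have a start region in resting WT, whereas all genes tested can include genes without one. This contrast can therefore follow from the choice of members. In KO at 1 h, 21 members were higher and 259 lower of 1361 tested, beside 4.34% and 11.4% of all genes, with a median log2 change of −0.51 in members and −0.23 in all genes tested. At 18 h in KO, 39 were higher and 133 lower of 1360, beside 4.19% and 6.3%, with medians of −0.21 and −0.07. From 1 h to 18 h in WT, 369 rose and 23 fell of 1230, beside 16.4% and 3.94%, with medians of 0.67 and 0.35. Quantile normalization changed the first pair to 47 higher and 96 lower and the second to 56 and 66, and centring changed the third to 191 and 48. Of the wide-start genes tested, which also had a start region at rest, 3.23% were higher and 7.78% lower in KO at 1 h. Of the members tested 1.54% were higher and 19.03% lower. At 18 h in KO these shares were 2.62% and 4.5% of wide-start genes, and 2.87% and 9.78% of members. Members have lower TSS levels than wide-start genes, and with 50 in place of 10 added before the logarithm 0.0725 to 0.725% of members were called at the TSS in these 3 comparisons and between genotypes. In KO that left 5 higher and 1 lower at 1 h and 10 and 0 at 18 h. Among members found in every library 29 were higher and 12 lower at 18 h. With 50 added, a level under 50 that falls to 0 cannot reach the call. The other setting leaves out members that lost their start region. Both settings remove losses by construction, so these counts do not decide the direction. The width of the start region fell in 282 members and rose in 97 in KO at 1 h, beside 23.6% and 10.8% of all genes (34.4% in either direction). At 18 h in KO it fell in 174 and rose in 97, beside 12.7% and 11.7%. Among members found in every library 88 were wider and 22 narrower at 1 h, and 85 and 9 at 18 h. Members that lost their start region are left out of that setting. With 2000 in place of 500 bp added there were 62 and 7, then 64 and 5. A region under 2000 bp that is lost cannot then reach the call, so neither setting decides the direction. From 1 h to 18 h in WT it rose in 394 and fell in 65, beside 32.7% and 6.96% (39.6% in either direction).

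Gbp5 (ENSMUSG00000105504, chr3:142493978-142522344, + strand), an interferon-inducible GTPase of host defence, spread at 1 h in both genotypes and stayed spread at 18 h. The rest of the gene held 37.4, 56.9 and 47.5 normalized tags in WT at 0 h, 7062, 6976 and 7278 after 1 h and 5153, 5067 and 5177 after 18 h. In KO it held 6.02, 14.5 and 14.6, then 6367, 5787 and 5734, then 5788, 8578 and 6100. The groups with LPS lay far above those without, with a log2 change of 8.13 in KO at 1 h (SE 0.162, adjusted p = 1.5e-16, limma). Its start region was 0.638 to 0.893 kb in WT at 0 h and 59.9 to 60.04 kb at 1 h, and this long region also covered the neighbouring Gbp7 (chr3:142530342-142550149, + strand). Gbp7 held 4893, 4834 and 5042 in WT at 1 h and 1074, 1079 and 1040 at 18 h. In KO at 18 h, Gbp7 held 4010, 1378 and 4227 tags, and the library with 1378 is the one whose region over Gbp5 was 35.2 kb rather than 60.6 to 60.7 kb. Reads of the near-identical Gbp genes may be shared out between them.

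Slco3a1 (ENSMUSG00000025790, chr7:74275419-74554780, − strand), an organic anion transporter, went from no Pol II region beyond the TSS to over 1500 tags after LPS. The rest of the gene was listed at 0 in all 6 libraries at 0 h and held 2267, 2078 and 2003 in WT and 1523, 1626 and 1532 in KO at 1 h. At 18 h it held 2157, 2692 and 2097 in WT and 5819, 5823 and 5495 in KO (adjusted p = 5.9e-19 for KO at 1 h and 2.1e-20 at 18 h). Slco3a1 entered these tests only through the LPS libraries, so the p-values rest on the constant added to 0. The start region of 1.36 to 1.76 kb in resting WT was 17.8 to 56.0 kb wide at 1 h. Il15ra, the alpha chain of the interleukin-15 receptor, rose at 1 h and rose again by 18 h. It held 24.6, 18.5 and 27.1 in KO at 0 h, 927, 897 and 909 after 1 h and 2854, 3221 and 3180 after 18 h, with log2 changes of 4.79 and 6.54 (SE 0.116, adjusted p = 1.4e-15 and 3.7e-17). Its further rise in WT from 1 h to 18 h (log2 1.26) was 0.38 after median centring and no longer called. Fas, a death receptor, held 0 to 4.07 in KO at 0 h, 478, 476 and 448 after 1 h and 501.3, 541 and 522 after 18 h. The 1 h call of Fas was lost without regions that overlap an input region (log2 0.91). Il15ra and Fas were singled out after their values had been seen.

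Rab11fip1 (ENSMUSG00000031488, chr8:27138773-27174646, − strand), an effector of Rab11 in endosome recycling, opened at 1 h in both genotypes and fell back by 18 h, less so in KO. It held 0, 9.43 and 0 in WT at 0 h, 2190, 2181 and 2222 after 1 h and 20.1, 24.6 and 38.4 after 18 h (log2 −5.90 from 1 h to 18 h, SE 0.244, adjusted p = 1.1e-12). In KO it held 2.97, 3.55 and 11.7, then 2442, 2465 and 2571, then 148, 138 and 176. The genotypes did not overlap at 18 h, with a log2 difference of KO from WT of 2.14 (SE 0.244, adjusted p = 1e-05). Its start region was 1.28 to 1.47 kb wide in WT at 0 h and 40.7 to 41.5 kb at 1 h, and at 18 h it was 1.28 to 3.25 kb in WT and 4.27 to 5.19 kb in KO. The TSS level was 30.6, 33.1 and 31.7 in WT at 0 h, 62.0, 61.7 and 62.9 after 1 h and 28.4, 24.2 and 20.4 after 18 h.

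Abtb2 (ENSMUSG00000032724, chr2:103566310-103718423, + strand) also rose at 1 h and fell back by 18 h. It held 37.4, 52.1 and 38.1 in WT at 0 h, 3629, 3548 and 3585 after 1 h and 77.1, 57.0 and 62.3 after 18 h (log2 −5.58 from 1 h to 18 h, SE 0.110, adjusted p = 1.5e-16). In KO it held 41.3, 45.2 and 46.8, then 2588, 2537 and 2523, then 100.1, 90.8 and 99.9. The difference of KO from WT was under the size needed for a call at both times (log2 −0.49 at 1 h and 0.51 at 18 h, SE 0.110). Its start region, 0.5 to 0.630 kb in WT at 0 h, was 9.30, 19.3 and 140.9 kb in the 3 WT libraries at 1 h and 0.823 to 1.07 kb at 18 h, so at 1 h its width differed widely within 1 group while the tags did not.

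Other members spread at 1 h and fell back by 18 h. In WT, Itgb8, the beta 8 integrin subunit, held 988, 928 and 891 at 1 h and 6.11, 11.1 and 16.9 at 18 h, when its start region was missing in all 6 libraries of both genotypes. Oaf held 987, 969 and 1003 in WT at 1 h and was listed at 0 in all 6 libraries at 18 h. Icosl, the ligand of the costimulatory receptor ICOS, held 1189, 1181 and 1211 at 1 h and 172, 182 and 170 at 18 h in WT. Stx11, a SNARE protein of vesicle fusion, held 1188, 1090 and 1149 and then 239, 270 and 242, and Nod2, the sensor of muramyl dipeptide, held 2345, 2379 and 2369 and then 702, 781 and 800. Stx11 and Nod2 were chosen after their values had been seen, and with regions over input regions left out their WT change from 1 h to 18 h turned positive, because their wide regions at 1 h were dropped whole.

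**Figure D3:**
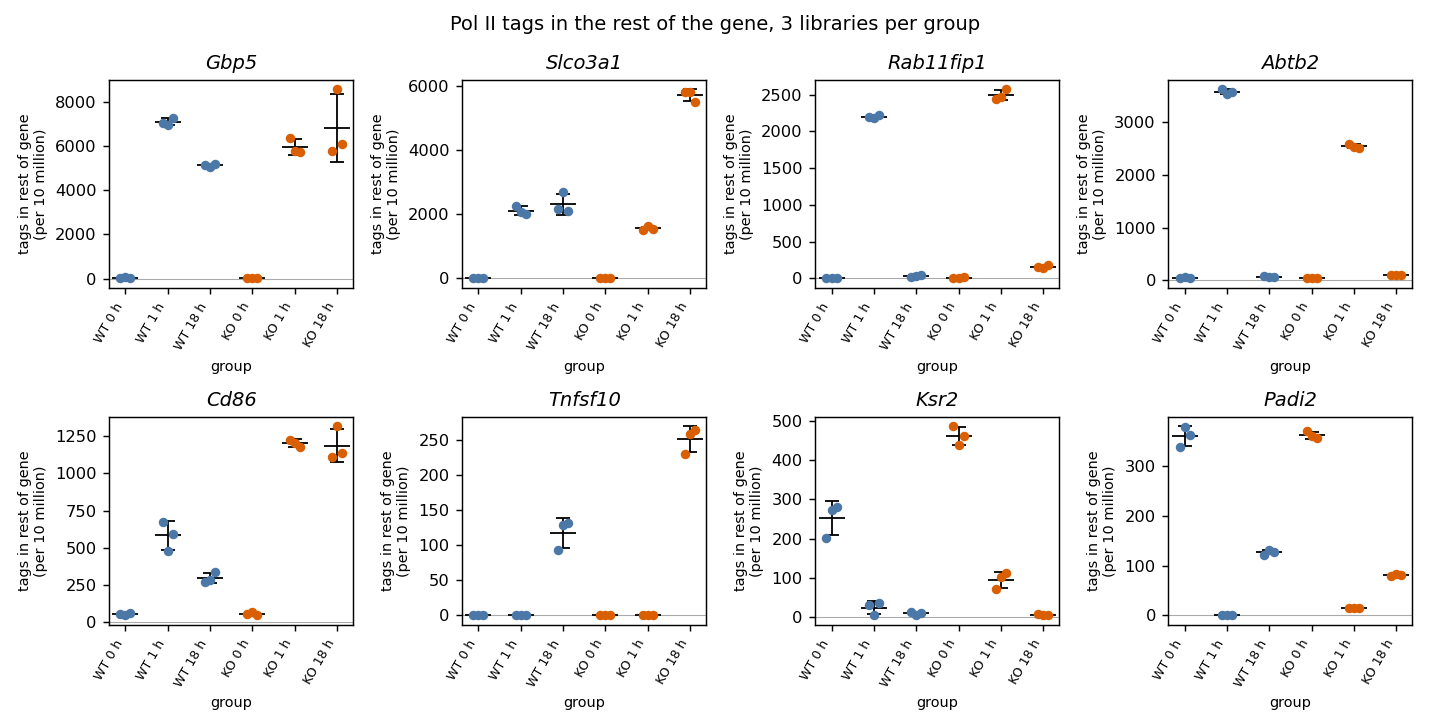
Pol II level in the rest of the gene (normalized tags) for Gbp5, Slco3a1, Rab11fip1, Abtb2, Cd86, Tnfsf10, Ksr2 and Padi2 at 0, 1 and 18 h of LPS in WT and KO. Dots are libraries, bars are group means and error bars the SD of 3 libraries, and Rab11fip1 and Abtb2 are highest at 1 h, Tnfsf10 at 18 h only, and Ksr2 and Padi2 at 0 h.

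A late set had its highest mean level and its widest mean start region at 18 h in WT. Batf (ENSMUSG00000034266, chr12:85686669-85709087, + strand), a transcription factor of the AP-1 family, had a start region of 0.750 to 1.03 kb in WT at 0 h, 2.45 to 3.91 kb at 1 h and 30.7 to 31.3 kb at 18 h. Its level in the rest of the gene was 344, 429 and 402 at 0 h, 971, 889 and 970 after 1 h and 1317, 1313 and 1332 after 18 h, and in KO it rose by 1.24 at 1 h (SE 0.083, adjusted p = 6.6e-10) and 1.95 at 18 h (log2). Tnfsf10 (ENSMUSG00000039304, chr3:27317028-27342427, + strand), which encodes the death ligand TRAIL and was chosen after its values had been seen, was listed at 0 beyond the TSS in all 12 libraries at 0 h and 1 h. At 18 h it held 93.0, 129 and 131 in WT and 230, 258 and 264 in KO. Slc28a2, a nucleoside transporter, fell before it rose. It held 97.1, 142 and 129 in WT at 0 h, 8.44, 0 and 24.7 after 1 h and 1997, 1951 and 1985 after 18 h, with a log2 change of 6.74 from 1 h to 18 h (SE 0.296, adjusted p = 2.5e-12). Rxra, the partner of many nuclear receptors, followed the same course in WT with 155, 194 and 140, then 0, 0 and 6.86, then 589, 590 and 580.

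The late set also held Ms4a4c, of a family of membrane-spanning proteins, and genes of interferon-induced families. Ms4a4c held 4.18, 3.13 and 7.51 in KO at 0 h, 31.9, 34.9 and 43.1 after 1 h and 2822, 2830 and 2935 after 18 h (log2 7.60). Ifit1bl2, of the interferon-induced Ifit family, held 16.3, 7.21 and 8.54, then 617, 568 and 584, then 2258, 2272 and 2357, with a log2 change of 6.83 at 18 h. Gm43302, which overlaps Gbp6, was listed at 0 in KO at 0 h and held 2642, 2606 and 2621 at 18 h. Adar, an RNA-editing enzyme induced by interferon, rose by 2.48 in KO at 18 h (SE 0.066, adjusted p = 6e-15) although its start region stayed at 0.5 to 1.5 kb in all 18 libraries. Its tags lay in separate regions further in, and another coding gene overlaps it. Ms4a4c, Ifit1bl2, the Gbp genes and Trim30b belong to families with near-identical copies, so reads may be split between them.

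Other members lost Pol II. Ksr2 (ENSMUSG00000061578, chr5:117414000-117775003, + strand), a scaffold of Ras and MAP kinase signalling, had a start region of 1.60 to 1.91 kb in WT and 8.28 to 10.2 kb in KO at 0 h and none in all 12 libraries with LPS. The rest of the gene held 486, 438 and 460 in KO at 0 h, 71.1, 103 and 112 after 1 h and 7.75, 5.81 and 7.23 after 18 h, a log2 change of −2.18 at 1 h (SE 0.29, adjusted p = 3.4e-06) and −4.80 at 18 h. Padi2 (chr4:140906344-140952586, + strand), a peptidylarginine deiminase, lost its start region in all 6 libraries at 1 h and regained part of its level later. It held 371, 360 and 357 in KO at 0 h, 14.1, 14.7 and 14.7 after 1 h and 78.3, 83.1 and 82.0 after 18 h, and in WT at 1 h it was listed at 0. Tmem201 held 598, 572 and 479 in KO at 0 h and was listed at 0 in all 6 libraries at 1 h. Mzf1, a zinc finger transcription factor, held 383, 427 and 182 and then 4.21, 3.997 and 2.98 (log2 −4.55, SE 0.268, adjusted p = 1.3e-10), a call lost without regions over input regions (−0.75). The uncharacterised 3110082I17Rik, which overlaps another coding gene, held 3630, 3490 and 3326 in KO at 0 h, 40.8, 53.6 and 42.5 after 1 h and 1658, 1712 and 1667 after 18 h, with no region at the TSS after LPS. Its change at 1 h was −1.21 and not called without regions over input regions, and 3 input libraries had a region at its start.

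At the TSS itself, Hnmt, the histamine-degrading methyltransferase, held 45.1, 36.5 and 39.9 in KO at 0 h, 1.35, 4.01 and 0 after 1 h and 0, 2.13 and 0 after 18 h (log2 −2.24 at 18 h, SE 0.135, adjusted p = 8.6e-10). Rhoj, a small GTPase, held 48.6, 43.9 and 41.5, then 7.03, 8.20 and 12.1, and was listed at 0 in KO at 18 h. Both stayed low at 18 h, although with 50 tags added neither was called there (−0.84 and −0.92). Sulf2, Lrrc39 and Socs6 had no start region in any of the 12 libraries with LPS.

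The 321 members that stayed under 2000 bp in all 18 libraries still changed in level. Lmf1 (chr17:25579085-25662826, + strand), which is needed for lipase maturation, held 57.6, 63.6 and 77.0 at the TSS in WT at 0 h, 18.5, 22.6 and 20.8 after 1 h and 73.4, 79.9 and 101 after 18 h. In KO it fell by 1.23 at 1 h on the log2 scale (adjusted p = 2.5e-07), and in WT it rose by 1.62 from 1 h to 18 h. Smc3, a core subunit of the cohesin complex, was not called at the TSS in KO at either time and fell in the rest of the gene. It held 83.4, 71.1 and 71.4 at the TSS in KO at 0 h, 84.5, 71.6 and 66.4 after 1 h and 36.6, 43.1 and 51.4 after 18 h, where the groups did not overlap (log2 −0.02 at 1 h and −0.67 at 18 h, SE 0.126). In the rest of the gene it held 37.5, 44.9 and 50.2 in KO at 0 h, 0, 0 and 15.6 after 1 h and 0, 0 and 6.73 after 18 h (log2 −1.98 and −2.18). Another gene starts within 1 kb of Smc3.

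Of 35 genes of Pol II pausing and elongation control, 27 were over 10 kb, all with a start region, and 4 of them were members (14.8%, beside 17.6% of all such long genes), which are Mllt1 of the super elongation complex, Ctr9 and Leo1 of the Paf1 complex and Ints1 of Integrator. At the TSS Ctr9 held 54.6, 54.9 and 76.8 in WT at 0 h, 43.9, 45.7 and 39.0 after 1 h and 66.2, 58.7 and 57.3 after 18 h. The 4 members had no call against 0 h in KO, and from 1 h to 18 h in WT Mllt1 (log2 1.43, SE 0.416, adjusted p = 0.0047) and Ctr9 (1.01, SE 0.417, adjusted p = 0.035) rose in the rest of the gene, beside 44.4% of all genes and 15 of 35 in the list. In the whole list 2 of 35 rose and 8 fell in KO at 1 h, beside 12.3% and 38.1% of all genes, with a median log2 change of −0.17 against −0.64 over all genes tested.

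Among 53 genes of Toll-like receptor and NF-kB signalling, 27 rose and 4 fell in the rest of the gene in KO at 1 h (median log2 1.02), beside 12.3% and 38.1% of all genes, and 2 were members (4.76% of the 42 long ones with a start region). Peli2, a Pellino ubiquitin ligase, fell by 2.58 at 1 h (SE 0.154, adjusted p = 1.6e-10) and by 1.20 at 18 h in KO, and the member Tab3 was not called. Among 55 inflammatory effectors and surface receptors, 47 of 54 tested rose and 2 fell at 1 h (median 3.46). All 4 members of that list rose in KO at both times, Cd86, Slc7a11 and Tnfsf15 among them, beside 12.3% of all genes at 1 h and 14.5% at 18 h. Of 50 interferon response genes 32 of 49 tested rose at 1 h and 46 of 49 at 18 h in KO, with medians of 1.81 and 3.07, and the members were Gbp5, called at both times, and Adar, called at 18 h. Batf was the only member among 15 AP-1 genes, of which 4 rose and 5 fell in KO at 1 h.

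Of 51 DNA replication and cell cycle genes 8 were members, 20% of the 40 long ones with a start region, near the 17.6% over all such genes. They are Pola1, Pole, Prim1, E2f7, Bub1, Bub1b, Plk1 and Tpx2. In the list 5 of 49 tested rose and 29 fell in the rest of the gene in KO at 1 h, with a median log2 change of −1.42 against −0.64 over all genes. Of the 6 members tested in the rest of the gene, 1 rose at 1 h, Bub1b (log2 1.27, SE 0.402, adjusted p = 0.0089), and 0 fell. At the TSS 4 of the 8 members fell at 1 h, beside 11.4% of all genes, namely Bub1b of the spindle checkpoint (log2 −1.46), Pola1 of DNA polymerase alpha (−1.35), the repressor E2f7 (−1.16) and the primase subunit Prim1, which held 8.56, 10.7 and 12.6 in KO at 0 h and was listed at 0 in all 12 libraries with LPS. Tpx2, a spindle assembly factor, rose in the rest of the gene by 2.35 at 18 h. Among 52 chromatin regulators, 4 rose and 24 fell in KO at 1 h, beside 12.3% and 38.1% of all genes, with a median of −0.88 against −0.64. Of the 4 members 3 fell, namely Kdm5b (−1.19), Hdac3 (just past a change of 1) and Smc3 (−1.98), with Hdac2 not called. From 1 h to 18 h in WT, Kdm5b and Hdac3 rose by 2.31 and 1.54, in a comparison where 44.4% of all genes rose. Fewer cells in cycle and less Pol II per gene cannot be told apart in such bulk samples.

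H3K27ac at the start moved the same way as Pol II in some named members and was not called in others. H3K27ac libraries did not enter the choice of members, so WT could be tested from 0 h. At 1 h 110 members rose and 126 fell, beside 8.13% and 9.08% of all genes tested, and at 18 h 81 rose and 177 fell, beside 6.34% and 8.69%. The median log2 changes were −0.10 and −0.14 in members, against −0.05 and −0.03 in all genes. Quantile normalization gave 139 and 107 at 1 h and 101 and 127 at 18 h. With 50 added there were 63 and 21, then 47 and 26, and among members found in every library 103 and 84, then 76 and 71, so the direction with more calls depended on the setting. As at the TSS, these last settings limit which losses can be called. In Gbp5 the mean level went from 38.6 to 788 at 1 h and 1029 at 18 h, and in Slco3a1 from 52.3 to 470 and 498. In Rab11fip1 it went from 95.2 to 410 and back to 136 (log2 2.00 at 1 h, SE 0.217, adjusted p = 1.6e-06), and in Abtb2 from 13.9 to 171 and 37.6. In Ksr2 it fell from 233 to 30.9 and 10.9, in the suppressor of cytokine signalling Socs6 from 280 to 35.0 and 25.2, and in Lrrc39 from 104 to 18.9 and 4.03. Of the 8 cell cycle members 1 was lower at 1 h and 5 at 18 h, and none of the 4 chromatin regulator members or the 2 members of Toll-like receptor signalling was called. Library 1 of KO correlated with libraries 2 and 3 across members by 0.836 and 0.845 at 1 h and by 0.872 and 0.869 at 18 h, against 0.984 and 0.985 between those. Without these 2 libraries, a setting chosen after the data were seen, 110 members rose and 129 fell in WT at 1 h, and 81 and 181 at 18 h.

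Between the genotypes some members differed after LPS, and which direction had more calls depended on the time, the measure and the setting. In the rest of the gene 58 members were higher and 18 lower in KO at 1 h of 935 tested, beside 4.89% and 1.5% of all genes (6.39% in either direction), and 36 higher and 27 lower at 18 h of 1098, beside 1.85% and 2.2% (4.05% in either direction). After centring on the median gene these were 42 and 36 at 1 h, then 47 and 18 at 18 h. Without regions over input regions there were 17 higher and 21 lower at 1 h, and with 1 tag added 38 and 44 at 18 h. The median log2 difference at 1 h was 0.23 in members and 0.21 in all genes, and at 18 h −0.11 and −0.12. At the TSS 18 were higher and 3 lower at 1 h, beside 0.699% and 0.311%, and 1 higher and 5 lower at 18 h, beside 0.27% and 0.409% (0.679% in either direction). Centring left 2 higher and 5 lower at the TSS at 1 h. The start region was wider in KO in 61 members and narrower in 7 at 1 h, beside 4.07% and 0.806% (4.87% in either direction), and wider in 14 and narrower in 16 at 18 h, beside 1% and 1.78% (2.78% in either direction). This last pair was 5 and 16 without replicate 1 and 12 and 5 among members found in every library. That last setting leaves out members without a start region in a library compared.

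**Figure D4:**
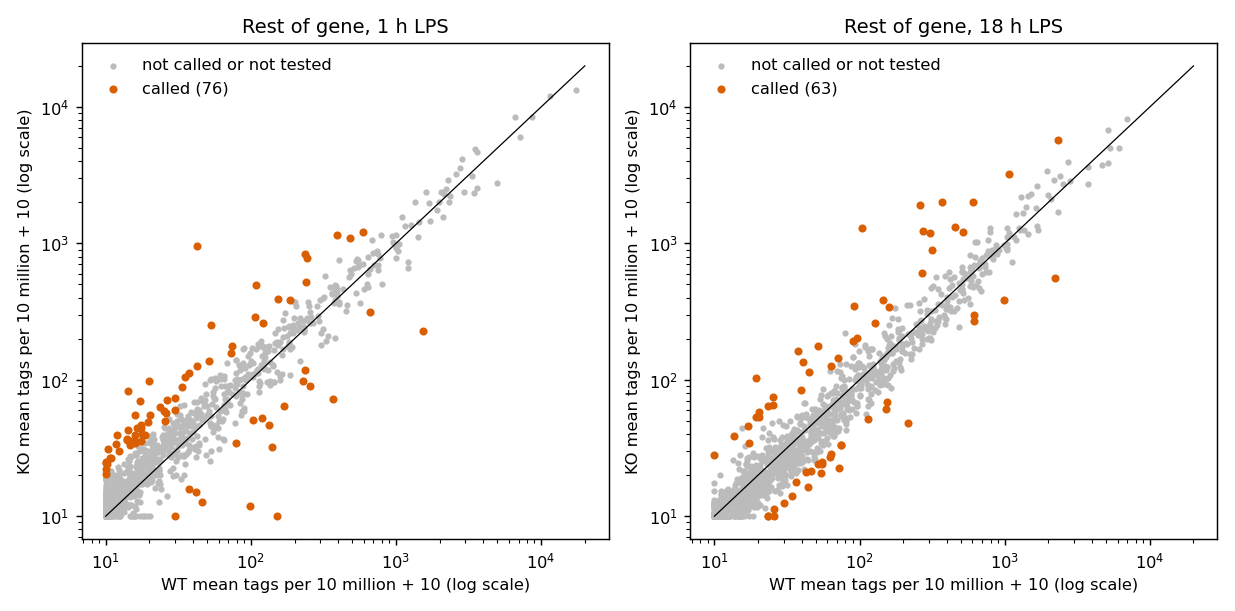
Mean Pol II level in the rest of the gene plus 10 (normalized tags, log axes) in KO against WT for the members tested at 1 h and 18 h of LPS. Each point is a member and the called ones, 76 at 1 h and 63 at 18 h, are marked, with more of them above the diagonal at both times.

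Cd86 (ENSMUSG00000022901, chr16:36603869-36666081, − strand), the costimulatory ligand of CD28, was higher in KO at both times. It held 673, 480 and 595 in WT and 1227, 1204 and 1174 in KO at 1 h, then 270, 281 and 334 in WT and 1108, 1316 and 1134 in KO. The log2 difference was 1.04 at 1 h (adjusted p = 3.3e-05) and 1.97 at 18 h (SE 0.139, adjusted p = 4.5e-08), with no overlap of libraries. Slc7a11, the cystine and glutamate antiporter, held 487, 529 and 512 in WT and 1152, 1224 and 1231 in KO at 18 h (log2 1.22, SE 0.075, adjusted p = 8.1e-09). Its start region was 19.9 to 21.1 kb in WT and 83.0 to 83.5 kb in KO at 1 h. Tnfsf15, the ligand TL1A, had overlapping libraries at 1 h with 1324, 1470 and 1495 against 1492, 1402 and 1400, and at 18 h held 275, 309 and 328 in WT and 906, 859 and 905 in KO (log2 1.52, SE 0.204, adjusted p = 5.8e-05). Tnfsf10 was higher in KO at 18 h by 1.04 (SE 0.125, adjusted p = 1.9e-05), or by 0.95 and not called without replicate 1, and by 0.85 and not called with 50 tags added.

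Slco3a1 was not called between genotypes at 1 h (log2 −0.44) and was higher in KO at 18 h, where the log2 difference was 1.31 (SE 0.084, adjusted p = 1.5e-08). Msi2 (chr11:88339382-88718513, − strand), an RNA-binding protein, held 216, 292 and 241 in WT and 1916, 2049 and 1784 in KO at 18 h (log2 2.90, SE 0.135, adjusted p = 2.9e-10), and 5.39 to 7.47 in the 6 libraries at 1 h. Adra1a, the alpha 1A adrenoceptor, held 56.9, 13.8 and 27.7 in WT and 912, 1075 and 874 in KO at 1 h, and 332, 439 and 313 against 1971, 2018 and 1988 at 18 h. It was above WT already at 0 h, with 21.6, 24.0 and 32.3 in WT and 124, 141 and 103 in KO. Plpp3, a lipid phosphate phosphatase, held 409, 339 and 404 in WT and 1189, 1109 and 1141 in KO at 1 h (log2 1.56, SE 0.257, adjusted p = 0.00024), with start regions of 1.38 to 4.14 kb and 53.6 to 58.5 kb. Ahr, the aryl hydrocarbon receptor, held 80.4, 124 and 91.6 in WT and 525, 510 and 432 in KO at 1 h (log2 2.21, SE 0.136, adjusted p = 7.7e-09) and was listed at 0 at the other times. The call of Ahr was lost without regions over input regions (0.78), and Ahr was chosen after its values had been seen. Rgcc, a regulator of the cell cycle, held 3.86, 7.78 and 1.38 in WT and 72.9, 61.2 and 83.5 in KO at 1 h.

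Other members were lower in KO. Slco4a1, an organic anion transporter, held 112, 72.2 and 81.3 in WT and 0, 5.87 and 0 in KO at 1 h (log2 −3.06, adjusted p = 1.3e-09). It entered this test only through WT. Cp, which encodes ceruloplasmin and overlaps another gene, held 357, 340 and 380 in WT and 61.2, 67.0 and 58.7 in KO at 1 h (log2 −2.35, adjusted p = 3.5e-08), and at 18 h 962, 1270 and 1324 in WT and 1621, 1647 and 1610 in KO. Eif2d held 1908, 466 and 2180 in WT and 182, 220 and 255 in KO at 1 h, and its difference turned to 1.35 without regions over input regions. Trim30b, of a tripartite motif family, held 940, 1062 and 923 in WT and 359, 384 and 384 in KO at 18 h (log2 −1.35, SE 0.205, adjusted p = 0.00019), with start regions of 59.96 to 61.5 kb in WT and 6.51 to 7.33 kb in KO. The start region of Rxra at 18 h was 3.84, 3.77 and 1.66 kb in WT and 0.5 kb or missing in KO, while the rest of the gene held 589, 590 and 580 in WT and 620, 680 and 627 in KO.

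Some members had no start region in KO before or after LPS. Cysltr2, a receptor for cysteinyl leukotrienes, held 19.9, 17.2 and 13.6 at the TSS in WT at 0 h, 13.4, 10.1 and 19.8 after 1 h and 41.1, 49.7 and 34.5 after 18 h, and was listed at 0 in all 9 KO libraries. Gm4070 held 20.9, 26.6 and 20.4, then 50.6, 65.6 and 51.5, then 108, 125 and 118 at the TSS in WT and was listed at 0 in all 9 KO libraries, whereas the rest of the gene held 530, 610 and 586 in WT and 594, 617 and 545 in KO at 18 h. H3K27ac at 0 h, the only measure of that time that could be tested between genotypes, was lower in KO in 4 members and higher in 0, beside 0.152% and 0.212% of all genes tested by limma. They are Cysltr2, Gm4070 and Olfml2b, which were listed at 0 in KO (adjusted p = 1.5e-06, 2.7e-07 and 0.00033), and Cfap45 (log2 −1.36, SE 0.216, adjusted p = 0.0032). Those listed at 0 entered the test only through WT, so their p-values rest on the constant added to 0. Requiring a region in every library leaves them out. With 50 tags added 1 call was left, that of Gm4070 (−1.18), and Cysltr2 and Olfml2b were at −0.65 and −0.58. The window threshold of the search was 6.05 to 6.55 tags per 10 M in these WT libraries and 4.89 to 5.43 in KO, and with a common floor 8 members were lower and 0 higher. The call of Olfml2b was lost without replicate 3, and without the 2 KO libraries that stood apart in H3K27ac 6 members were lower and 1 higher. Without replicate 1 these were 7 and 2, and without replicate 3 they were 2 and 0.

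A stretch of chromosome 1 held several of these genes, and it was singled out after its values had been seen. The stretch around the Fc gamma receptor and Ifi200 genes, whose tested genes span chr1:168119364-174248450, held 8 members, of which Olfml2b, Fcgr3, Cfap45 and Ifi213 were lower in KO in at least 1 comparison, among 55 members lower in KO in any. Of the 85 genes tested there, members or not, 37 (43.5%) were lower in KO in at least 1 comparison of any measure, beside 4.52% of all 13683 genes tested and 51 of the 1369 members tested elsewhere. Ifi213 (ENSMUSG00000073491, chr1:173566283-173599274, − strand), of the interferon-inducible Ifi200 family, held 158, 150 and 118 in WT and was listed at 0 in KO at 1 h (adjusted p = 8.5e-12), a call lost without regions over input regions (log2 −0.67). Ifi213 entered the 1 h test only through WT, so that p-value rests on the constant added to 0. At 18 h it held 2055, 2250 and 2306 in WT and 524, 560 and 562 in KO (log2 −1.99, SE 0.134, adjusted p = 2.6e-08). Fcgr3, an activating receptor for immunoglobulin G, held 21.98, 18.8 and 26.0 at the TSS in WT and 0, 0 and 7.72 in KO at 18 h (log2 −1.41, SE 0.198, adjusted p = 0.00029, a call lost with 50 tags added at −0.46), and in the rest of the gene 730, 760 and 710 against 589, 637 and 601. Cfap45 had no start region in all 9 KO libraries, and its rest held 61.4, 65.6 and 58.9 in WT and 19.0, 10.95 and 8.17 in KO at 18 h (log2 −1.69, adjusted p = 0.0015), a call lost without regions over input regions (−0.76) and with 50 tags added (−0.84).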

How the data were processed

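Reads had been trimmed (Skewer), aligned to mm10 (HISAT2 2.1.0) and freed of duplicates by the authors, who then ran HOMER's search for broad regions per library with no input as control. Windows of 500 bp past a Poisson p of 0.001 were joined across gaps under 1000 bp, per the file headers. As deposited, each region has a signal, its Normalized Tag Count (tags per 10 M), and a size in bp from start to end. Window thresholds were 5.1 to 6.0 tags per 10 M for Pol II and 4.88 to 8.14 for H3K27ac, so weaker enrichment is not seen, and depth differed between libraries (H3K27ac 13.5 to 55.4 M tags, inputs 25.6 to 45.3 M).

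Tags of a region were shared out over the TSS window and the rest of the gene by overlap, which spreads them evenly and dilutes the TSS value of a wide region. H3K27ac was taken within 2500 bp of the TSS. The widest region over the TSS set the classes by width. Tested widths and median widths were summed over all regions there. Gene positions came from the GRCm38 annotation, whose promoter sequences were read from the genome and were identical to the RefSeq promoter table (GRCm38) for 5577 of 5577 shared starts. Log2(tags + 10), or log2(bp + 500) for widths, was fitted with limma 3.58.1 in R 4.3.3 over all groups of an antibody, with an intensity trend and Benjamini-Hochberg adjustment over all genes above 0 in at least 2 libraries of a group compared. Scripts ran in Python 3.11.15 with pandas 2.3.3, numpy 2.4.6 and matplotlib 3.10.9. On data simulated for KO at 1 h against 0 h in the rest of the gene (12377 genes), 91% of 100 genes changed by 1.5 and 100% of 100 changed by 2.5 (log2) were recovered, and 0 of 12177 unchanged genes were called. The changed genes were drawn only from those above a set level in KO at 0 h. The noise was normal and no region search was simulated, so recovery among low members was not tried.

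Groups came from the sample titles. The alternatives were other scalings, added constants, filters, width limits and gene lengths, leaving out replicates, input regions or members near other genes, a replicate block, and whole regions at the TSS. Named genes were the 3 called members with the largest change each way per comparison and measure with no overlap of libraries (8 and 6 for the rest of the gene in KO at 1 h), the 5 highest at the TSS in resting WT, the 5 highest among those narrow in all 18 libraries, the 3 on each side of the width limit, members of the gene lists, and Nr4a1, and Ahr, Fas, Il15ra, Nod2, Stx11 and Tnfsf10 were added after their values had been seen. Some genes the rule names are not reported here. The members and lists were chosen with earlier results of these data known.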

Additional observations from a re-analysis of the deposited data

Results flagged for a closer look

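The change in the rest of the gene from 1 h to 18 h of LPS was compared between KO and WT as an interaction in the same limma fit, where a negative value means a lower change in KO. Values are differences on the log2(tags + 10) scale, and for genes listed at 0 in a group they depend on the 10 added. Over 12562 genes tested, 12.2% were called, 2.56% positive and 9.63% negative. Of 1164 members tested, 148 were called, 46 positive and 102 negative.

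In 5 of the members called, 0.430% of those tested beside 0.915% of all genes tested, the libraries at 18 h all lay on one side of those at 1 h in KO and all on the other side in WT. They were singled out after their values had been seen. Agap1 (−2.20, SE 0.301, adjusted p = 5.9e-05) had a mean of 244 tags at 1 h and 118 at 18 h in KO, and 43.0 and 107 in WT. Gga2, an adaptor of vesicle transport, had −2.50 (SE 0.416, adjusted p = 0.00033), from 23.4 to 10.6 in KO and from 4.79 to 44.5 in WT. Havcr2, the immune receptor TIM-3, had −2.10 (SE 0.422, adjusted p = 0.0015), from 29.5 to 5.18 in KO and from 1.90 to 9.76 in WT. Extl3, an enzyme of heparan sulfate synthesis, had −1.07 (SE 0.185, adjusted p = 0.00044), from 130 to 108 in KO and from 69.6 to 130 in WT. Rmdn3 went the other way with 1.34 (SE 0.244, adjusted p = 0.00071), from 54.4 to 85.8 in KO and from 160 to 89.8 in WT.

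Among named genes, the interaction was called with a positive value in Slco4a1 (3.06), Msi2 (2.90), Cp (2.82), Gbp7 (2.24), Eif2d (2.18), Rab11fip1 (1.96), Ifi213 (1.93), Slco3a1 (1.74), Ms4a4c (1.55), Tnfsf15 (1.52), Trp53bp1 (1.16), Icosl (1.15), Tnfsf10 (1.04) and Abtb2 (1.00). It was called with a negative value in Rgcc (−2.73), Ahr (−2.21), Adra1a (−2.17), Ksr2 (−1.91), Padi2 (−1.88), Ppp2r5d (−1.55), Carmil1 (−1.54), Dnaic2 (−1.32), Ms4a1 (−1.19), Hdac2 (−1.18), Cysltr2 (−1.13), Trim30b (−1.09) and Hdac3 (−1.04).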

How the results depend on the processing

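The values here are the percent of all members called, for KO at 1 h and at 18 h against 0 h, WT at 18 h against 1 h, and KO against WT at 1 h and at 18 h in that order. As reported they were 43.3, 32.3, 45, 5.51 and 4.57 in the rest of the gene, 20.3, 12.5, 28.4, 1.52 and 0.435 at the TSS, and 27.5, 19.6, 33.3, 4.93 and 2.17 for width. H3K27ac had 17.1 for WT at 1 h, 18.7 at 18 h and 0.290 for KO against WT at 0 h. No filter, genes over 20 kb, width limits of 1500 or 3000 bp and gene ends 500 bp further on kept all values they could change within 1.5 times. With 50 tags added (2000 bp for width) the rest of the gene had 19.7, 15.6, 22.5, 1.52 and 1.59, the TSS 0.435, 0.725, 0.580, 0.0725 and 0.0725, width 5.0, 5.0, 7.75, 1.01 and 1.01, and H3K27ac 6.09, 5.29 and 0.0725. With 1 tag added the TSS had 36.9, 23.2, 48.9, 11.3 and 1.59, KO against WT at 1 h had 13.6 in the rest and 9.28 for width, and H3K27ac at 0 h 0.507. Among members found in every library compared, the TSS had 5.51, 2.97, 9.42, 0.0725 and 0.0725, width 7.97, 6.81, 9.28, 1.38 and 1.23, the rest 26.8 for KO at 1 h, 25.9 for WT and 3.41 between genotypes at 1 h, and H3K27ac 10.7 at 18 h and 0.0725 at 0 h. Whole regions at the TSS, not shared out, gave 39.1, 24.9, 49.6, 5.22 and 2.03. Median centring gave 17.3 for WT and 0.507 between genotypes at 1 h at the TSS, and quantile normalization 10.4 for KO at 1 h, 17.1 for WT and 2.83 between genotypes at 1 h. H3K27ac at 0 h had 0.580 with a common density floor, 0.4425 without members near or overlapping another gene, and 0.145 to 0.652 leaving out each replicate in turn.

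Without regions that overlap an input region the rest had 19.6, 16.4, 18.4, 2.75 and 2.97, width 10.0, 8.33, 9.57, 2.101 and 0.797, the TSS 7.83, 6.16 and 7.46 over time and 0.652 between genotypes at 1 h, and H3K27ac 4.78 and 7.03. This setting drops a region whole, so wide regions are lost by its construction, and all 7 reversed values arose there. From 1 h to 18 h in WT, Nod2 became 3.25 and Stx11 1.42 in the rest, and Adamtsl4 −0.48 at the TSS and −0.67 in width. In KO at 1 h, Adamtsl4 became 0.16 at the TSS. Between genotypes Eif2d became 1.35 at 1 h and Ppp2r5d 0.29 at 18 h.

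Libraries of the same number in the labels showed little shared deviation in Pol II (correlations of −0.072 to 0.129 in the rest of the gene, with 1 of 45 pairs over 0.1, and −0.053 to 0.059 at the TSS). For H3K27ac they ran from −0.424 to 0.081. The lowest of these (−0.424, −0.41 and −0.341) were all between KO at 1 h and KO at 18 h. The numbers were not used as pairs, and these correlations cannot exclude shared animals or batches. With a replicate block the 18 percentages stayed within 1.5 times, for example 4.49 in the rest between genotypes at 18 h, and the values of all named genes stayed on their side of the threshold.

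Depth limits these results through the region search. Enrichment below 5.1 to 6.0 tags per 10 M in a window for Pol II, and below 4.88 to 8.14 for H3K27ac, is listed at 0, and tags could not be turned back into counts, so low members carry the widest error. Replicates correlated by 0.963 to 0.987 in the rest of the gene, by 0.884 to 0.96 at the TSS and by 0.836 to 0.985 for H3K27ac, where library 1 of KO at 1 h and at 18 h stood apart. Without those 2 libraries, chosen after the data were seen, the H3K27ac percentages were 17.3, 19.0 and 0.507. Leaving out a replicate lost the genotype calls of Ppp2r5d (−1.46 without replicate 1) and Tnfsf10 in the rest at 18 h, Evi5l at the TSS at 1 h (0.89 to 1.03), Gbp7 at the TSS at 18 h (1.02 to 1.07), and the widths of Cd86, Cp, Slco3a1 and Adra1a.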
